A study of Rattus norvegicus with 4 samples.

Results

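The comparison described here set FR30 offspring, which were undernourished before birth, against control offspring, with both kept on standard diet. It used 2 of the 4 samples of a rat study of prenatal nutrition and later diet, the samples described as hypothalamus of FR30 rats and of control rats without high-fat feeding. All samples were total RNA of the hypothalamus of Wistar rats aged 4 months, male per the series title, hybridised to Illumina bead arrays, whose beads carry short DNA probes. The groups were FR30 offspring on standard diet and control offspring on standard diet, and, for a second look at the same prenatal contrast, FR30 offspring on high-fat (HF) diet and control offspring on HF diet. Each group was 1 array, and the sources used here do not give whether an array was 1 animal or a pool. No test of the prenatal difference was therefore possible, and every difference below is a size without a replicate check.

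The hypothalamus joins the nervous and hormonal control of feeding, body temperature, stress, growth and reproduction. Its peptide neurons release hormones into the pituitary or signal within the brain, most of its neurons use GABA or glutamate as the fast transmitter, and its tanycytes, astrocytes, oligodendrocytes and vessels carry their own transcripts. Undernutrition before birth is widely used in rats as a model of early programming of appetite and stress responses. In RNA of a whole tissue, fewer cells of a type and less RNA per cell cannot be told apart.

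Signals printed below are the authors' normalized intensities, which keep the background, each with the SD deposited beside it. The sources used here do not say what that SD was taken over, and its median was 3.33% of the signal in the FR30 array and 3.41% in the control array. Differences are log2 values, FR30 minus control, after background correction and quantile normalization, so that a difference of 0.58 is 1.5-fold, and they exceed the log2 ratio of the printed signals for dim genes. Of 22523 probes, 10579 were detected in FR30 and 10776 in control offspring on standard diet at a detection p under 0.01, and 10184 of 21397 genes were detected in both. The tissue label held: Pmch had signals of 38931 ± 2466 in FR30 and 38829 ± 972 in control offspring, Hcrt 2447 ± 28.6 in FR30 and 2242 ± 199 in control offspring, and Agrp 747 ± 27.7 in FR30 and 714 ± 9.71 in control offspring, all peptide genes that mark hypothalamic neurons. Lepr, the leptin receptor gene, and Kiss1 were not detected.

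FR30 and control hypothalami differed little for most genes. The median difference over the 10184 genes was 0.02 and the SD over genes 0.17, and 57.8% of genes lay within 0.1 of 0. Small positive differences were the more common, with 5725 genes (56.2%) higher and 4417 lower in FR30 offspring, whereas the far tail was on the lower side: the first percentile lay at -0.50 and the 99th at 0.37. At 1.5-fold or more, 24 genes were higher (0.236% of the genes compared) and 55 lower (0.54%), together 79 genes or 0.776%. The larger number on the lower side continued just inside the threshold, with 19 genes higher and 58 lower between 1.4 and 1.5-fold. At 2-fold or more, 3 genes were higher and 5 lower. The authors' normalized signals put 12 genes higher and 16 lower past 1.5-fold, so the share of higher genes depended on the background correction, while all 79 genes kept their direction. Of the 79, 74 had signals that remained apart after 2 deposited SD were taken from each side, as had 11.6% of all genes. The 79 were chosen for a large gap between these same 2 arrays, which favours that outcome, so it is no further support for the differences. The SD of the difference was 0.19 in the dimmest decile of genes and 0.11 in the brightest.

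**Figure D1:**
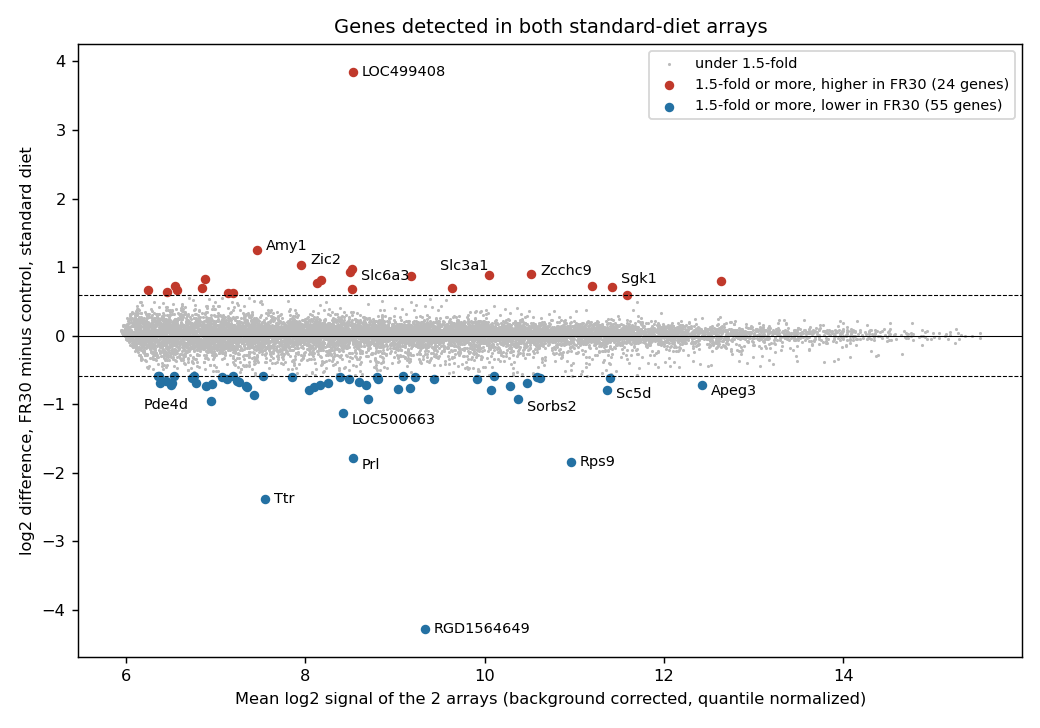
Log2 difference (FR30 minus control, standard diet, vertical axis) against the mean log2 signal of the 2 arrays (horizontal axis) for each of 10184 genes, with dashed lines at 1.5-fold. The 24 red genes lie above and the 55 blue genes below the lines, and LOC499408 (3.85) and RGD1564649 (-4.28) stand furthest out.

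Immediate early genes, which neurons switch on within minutes of activity, had the highest median of the 70 gene lists examined. Of 30 detected members 24 were higher and 6 lower in FR30 offspring, with a median of 0.12 against 0.02 for all genes, and none reached 1.5-fold. The list median was 0.09 with the authors' normalized signals and 0.09 without background correction. On HF diet the same list had 19 higher and 11 lower and a median of 0.04. Many of these genes answer cyclic AMP and calcium through the cAMP response element TGACGTCA. The promoters of 3 members that hold it are shown because they place this element in genes of the list with the highest median, from RefSeq promoters of the GRCr8 build that run from 250 bases before to 50 after the start of the gene. Dusp1 lies at chr10:17184603-17184902, Ier2 at chr19:40399123-40399422 and Crem at chr17:58985240-58985539, all on the plus strand, and capitals mark the element.
Dusp1: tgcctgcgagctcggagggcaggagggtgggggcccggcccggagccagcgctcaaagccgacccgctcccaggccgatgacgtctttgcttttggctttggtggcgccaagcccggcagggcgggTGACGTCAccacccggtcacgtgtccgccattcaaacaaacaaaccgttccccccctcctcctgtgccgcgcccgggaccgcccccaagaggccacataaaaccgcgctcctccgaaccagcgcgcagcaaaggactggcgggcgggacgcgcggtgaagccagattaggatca
Ier2: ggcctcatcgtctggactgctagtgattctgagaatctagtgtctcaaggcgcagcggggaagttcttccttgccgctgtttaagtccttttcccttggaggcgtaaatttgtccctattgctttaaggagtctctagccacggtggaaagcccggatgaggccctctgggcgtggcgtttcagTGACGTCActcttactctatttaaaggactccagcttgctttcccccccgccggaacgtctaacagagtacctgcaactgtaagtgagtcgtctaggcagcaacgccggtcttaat
Crem: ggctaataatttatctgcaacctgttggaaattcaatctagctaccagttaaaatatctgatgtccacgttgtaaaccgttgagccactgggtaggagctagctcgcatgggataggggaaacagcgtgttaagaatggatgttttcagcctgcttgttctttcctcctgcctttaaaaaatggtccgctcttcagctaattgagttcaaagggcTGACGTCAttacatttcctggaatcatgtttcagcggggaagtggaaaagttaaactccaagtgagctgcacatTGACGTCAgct

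Dusp1, a phosphatase that switches off MAP kinases, had signals of 2392 ± 112 in FR30 and 1917 ± 31.8 in control offspring, a difference of 0.37. Ier2, a nuclear early-response gene, was dim, at 226 ± 12.2 in FR30 and 209 ± 7.78 in control offspring (0.31), and Crem, a cyclic AMP responsive regulator, had 468 ± 21.7 in FR30 and 429 ± 12 in control offspring (0.18). The signals of all 3 were higher in FR30 offspring, by less than 1.5-fold, and of the 3 Dusp1 alone stayed apart by 2 deposited SD on each side. These 3 had the largest differences of the 5 immediate early genes found to hold TGACGTCA, so their direction goes in part with that choice. Btg2 (0.12) and Jund (0.10) hold it too and differed less. A gene was counted once if any of its promoters held the letters on either strand. TGACGTCA was present in 5 of 22 immediate early genes with a promoter in the table (22.7%). It was present in 3.42% of 7272 detected genes and in 2.0% of all 27457 genes. The shorter TGACG, which every TGACGTCA contains, was present in 68.2% of the immediate early genes, 33.3% of detected genes and 23.0% of all. A match says only that these letters are in the window. At the top of the list, Klf2, a transcription factor best known from endothelium, had 314 ± 5.54 in FR30 and 257 ± 9.36 in control offspring (0.54), and Fos had 266 ± 28.1 in FR30 and 232 ± 11.9 in control offspring (0.43). The Fos signals lay less than 2 deposited SD apart on each side. Ier5 (-0.20) and Klf6 (-0.13) were the lowest members.

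Glucocorticoid receptors and glucocorticoid-induced genes overlap with that list through Dusp1 and others, and 16 of 22 were higher and 6 lower, with a median of 0.08 that was 0.03 with the authors' normalized signals and 0.04 without background correction. Sgk1, a kinase induced by glucocorticoids that stabilises ion channels at the membrane, was the only member at 1.5-fold, with 3392 ± 88.1 in FR30 and 2045 ± 28.2 in control offspring, a difference of 0.71. Per1, a clock gene with a glucocorticoid-responsive promoter, had 951 ± 39.6 in FR30 and 708 ± 34.5 in control offspring (0.52), and Nfkbia, the inhibitor of NF-kB, had 1294 ± 36.2 in FR30 and 985 ± 18.2 in control offspring (0.43). Both were brighter in FR30 offspring by more than 2 deposited SD on each side. Fkbp5, another classical glucocorticoid target, differed by -0.06 and Sult1a1 by -0.07, the lowest members. On HF diet 20 of 22 members were higher in FR30 offspring and the median was 0.08. Of all genes, 56.2% were higher on standard diet, and 51% of those detected on 4 arrays were higher on HF diet.

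The genes that stood furthest apart are shown in the plot of signals in each array. LOC499408, a locus without a name in the tables used here, had 1399 ± 25.3 in FR30 and 221 ± 0.981 in control offspring, a difference of 3.85 or 14.4-fold. Amy1, an amylase gene, had 380 ± 4.26 in FR30 and 237 ± 11.3 in control offspring (1.25), and Zic2, a transcription factor of forebrain patterning, had 452 ± 19.1 in FR30 and 290 ± 11.8 in control offspring (1.03). On the lower side, RGD1564649, also unnamed, had 266 ± 11.4 in FR30 and 2711 ± 98.0 in control offspring, a difference of -4.28 or 19.5-fold. These 2 unnamed loci lay further out than any gene with a known function, taking 1 probe per gene. Ttr, the carrier of thyroxine and retinol-binding protein made by choroid plexus, had 209 ± 8.19 in FR30 and 523 ± 14.9 in control offspring (-2.38), and Prl, the prolactin gene of the anterior pituitary, had 313 ± 11.6 in FR30 and 759 ± 17.7 in control offspring (-1.79). Ttr and Prl are given again below with the other markers of choroid plexus and pituitary.

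**Figure D2:**
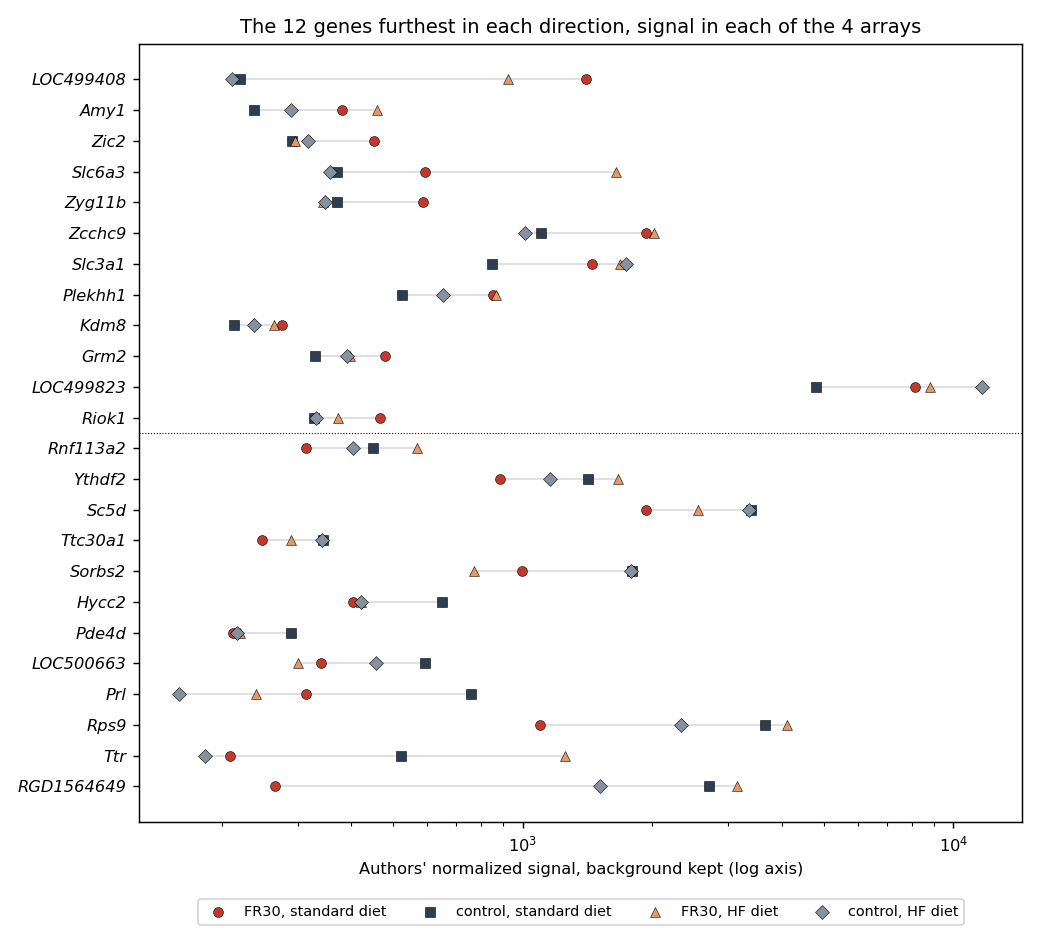
Authors' normalized signal on a log axis in each of the 4 arrays for the 12 genes furthest higher in FR30 offspring on standard diet (above the dotted line) and the 12 furthest lower (below it). Red circles (FR30) lie right of dark squares (control) in the upper block and left of them in the lower block, with HF-diet arrays as triangles (FR30) and diamonds (control).

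Genes of synaptic transmission gave values on both sides, with several receptor subunits lower. Gad2, which makes the GABA released at synapses, had 936 ± 42.6 in FR30 and 1357 ± 8.10 in control offspring, a difference of -0.60. The other GABA-synthesising gene, Gad1, had 11204 ± 177 in FR30 and 10630 ± 163 in control offspring (0.09), so that only 1 of the 2 was past 1.5-fold. Of 18 detected genes of GABA and glutamate synthesis and transport 13 were higher and 4 lower, with a median of 0.07 that was 0.05 with median scaling. The GABA transporter Slc6a13 (0.48), a gene of the meninges, and the glial glutamate transporter Slc1a3 (0.22) were furthest up, while Abat, which breaks GABA down, was at -0.11. Gabrb2, a beta subunit of the GABA-A receptor, had 325 ± 4.02 in FR30 and 455 ± 6.72 in control offspring (-0.74). Of 14 GABA and glycine receptor subunits 5 were higher and 9 lower, with a median of -0.02, and the GABA-B subunits Gabbr1 (0.20) and Gabbr2 (0.15) led the higher ones.

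Among 17 detected genes of the glutamate receptor list 6 were higher and 11 lower, with a median of -0.02. Grm2, a presynaptic metabotropic receptor that restrains glutamate release, had 479 ± 29.8 in FR30 and 330 ± 5.05 in control offspring (0.81), the only member at 1.5-fold. Grin2a, an NMDA receptor subunit, had 335 ± 12.8 in FR30 and 426 ± 12.8 in control offspring (-0.53), followed by the AMPA receptor subunit Gria3 (-0.28). Grina (0.20), which the list includes though it is not itself a receptor subunit, was the next higher after Grm2. Of 28 neuropeptide and hormone receptors 10 were higher and 17 lower, with a median of -0.03. Sstr1, a somatostatin receptor, had 421 ± 12.1 in FR30 and 607 ± 21.0 in control offspring (-0.73). Rxfp3, the receptor of relaxin-3, was near the detection limit at 195 ± 3.85 in FR30 and 224 ± 4.72 in control offspring (-0.59). Hcrtr1 and Adcyap1r1, the receptors of orexin and PACAP, were furthest up at 0.16 each. In 29 monoamine, acetylcholine, purine and cannabinoid receptors 15 were higher and 14 lower, from P2ry12 (-0.35) and Cnr1 (-0.28) to P2rx5 (0.30).

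Of 48 detected genes of vesicle release 20 were higher and 27 lower, with a median of -0.03. Pacsin1, which bends membrane in synaptic vesicle endocytosis, had 349 ± 13.1 in FR30 and 486 ± 7.89 in control offspring (-0.69). The active zone scaffold Pclo had 474 ± 19.9 in FR30 and 604 ± 9.79 in control offspring (-0.48), whereas Rab3a, a vesicle GTPase, was at 0.42 and Doc2a at 0.25. The Rab27 effector Sytl5, outside the list, was at -0.59, and the early endosome tether Eea1 at -0.69. Of the listed potassium, sodium, calcium and HCN channel genes detected in both arrays none reached 1.5-fold. Of 41 potassium channel genes 18 were higher and 23 lower, from Kcnt2 (-0.32) and Kcna4 (-0.31) to Kcnn3 (0.17) and Kcnh3 (0.30), and of 24 sodium, calcium and HCN channel genes 15 were higher and 9 lower, from Scn3a (-0.35) and Scn2a (-0.20) to Scn4b (0.23) and Cacng8 (0.30).

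Signalling enzymes with differences of 1.5-fold lay mainly on the lower side, as did 55 of all 79 genes past 1.5-fold. Pde4d, which degrades cyclic AMP, had 213 ± 9.13 in FR30 and 290 ± 3.17 in control offspring (-0.96), and 15 of 24 detected genes of cyclic nucleotide synthesis and breakdown were lower and 9 higher, with a median of -0.05. Adcy9 (-0.32) was the next lowest member, and Pde7a (0.23) and Adcy4 (0.13) the highest. Prkce, a protein kinase C of neurons, had 1257 ± 56.8 in FR30 and 1866 ± 38.3 in control offspring (-0.61). In the list of protein kinase A and C subunits it was the only member at 1.5-fold, with 17 of 24 members higher and a median of 0.02, among them Akap1 (0.14), while Prkci (-0.17) was lower. Prkg1, a cyclic GMP dependent kinase, was at -0.60. Dusp3, a phosphatase of ERK and JNK, had 1139 ± 37.8 in FR30 and 1791 ± 85.8 in control offspring (-0.69), while Mapk14, the p38 kinase gene, was at 0.33 and Dusp8 at -0.42, and 23 of 40 members of the MAP kinase list were higher. The cell cycle inhibitor Cdkn1b had 533 ± 14.4 in FR30 and 741 ± 66.5 in control offspring (-0.59).

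The growth and insulin pathways showed small differences. Of 23 PI3 kinase, insulin and mTOR genes 11 were higher and 12 lower, with a median of -0.00 that was 0.01 in the authors' normalized signals and 0.02 with median scaling, and after Sgk1 the furthest were Eif4ebp1 (0.25), Gsk3b (-0.38) and Pik3r3 (-0.36). Of 15 JAK, STAT and SOCS genes 12 were higher and 3 lower, with a median of 0.04 here and -0.02 on HF diet, from Socs7 (-0.29) and Leprotl1 (-0.11) to Tyk2 (0.23) and Ptpn11 (0.28). The Wnt list was even, with 11 higher and 11 lower and a median of -0.02 that was 0.00 in the authors' signals and 0.01 among genes detected on all 4 arrays; Axin2 (-0.51), a feedback target of Wnt signals, and Lrp6 (-0.29) were lowest and Lrp5 (0.42) and Apc (0.27) highest. Notch genes were even too (7 and 7), from Notch1 (-0.29) and Jag1 (-0.29) to Notch4 (0.19) and Hey1 (0.22). Of 28 TGF-beta and BMP genes 16 were higher, from Smad7 (-0.32) and Bmpr1a (-0.31) to Smad5 (0.23) and Bmp4 (0.43), and of 60 regulators of small GTPases 32 were higher, from Rgs11 (-0.34) and Rasa1 (-0.33) to Arhgap25 (0.30) and Arhgap45 (0.33).

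**Figure D3:**
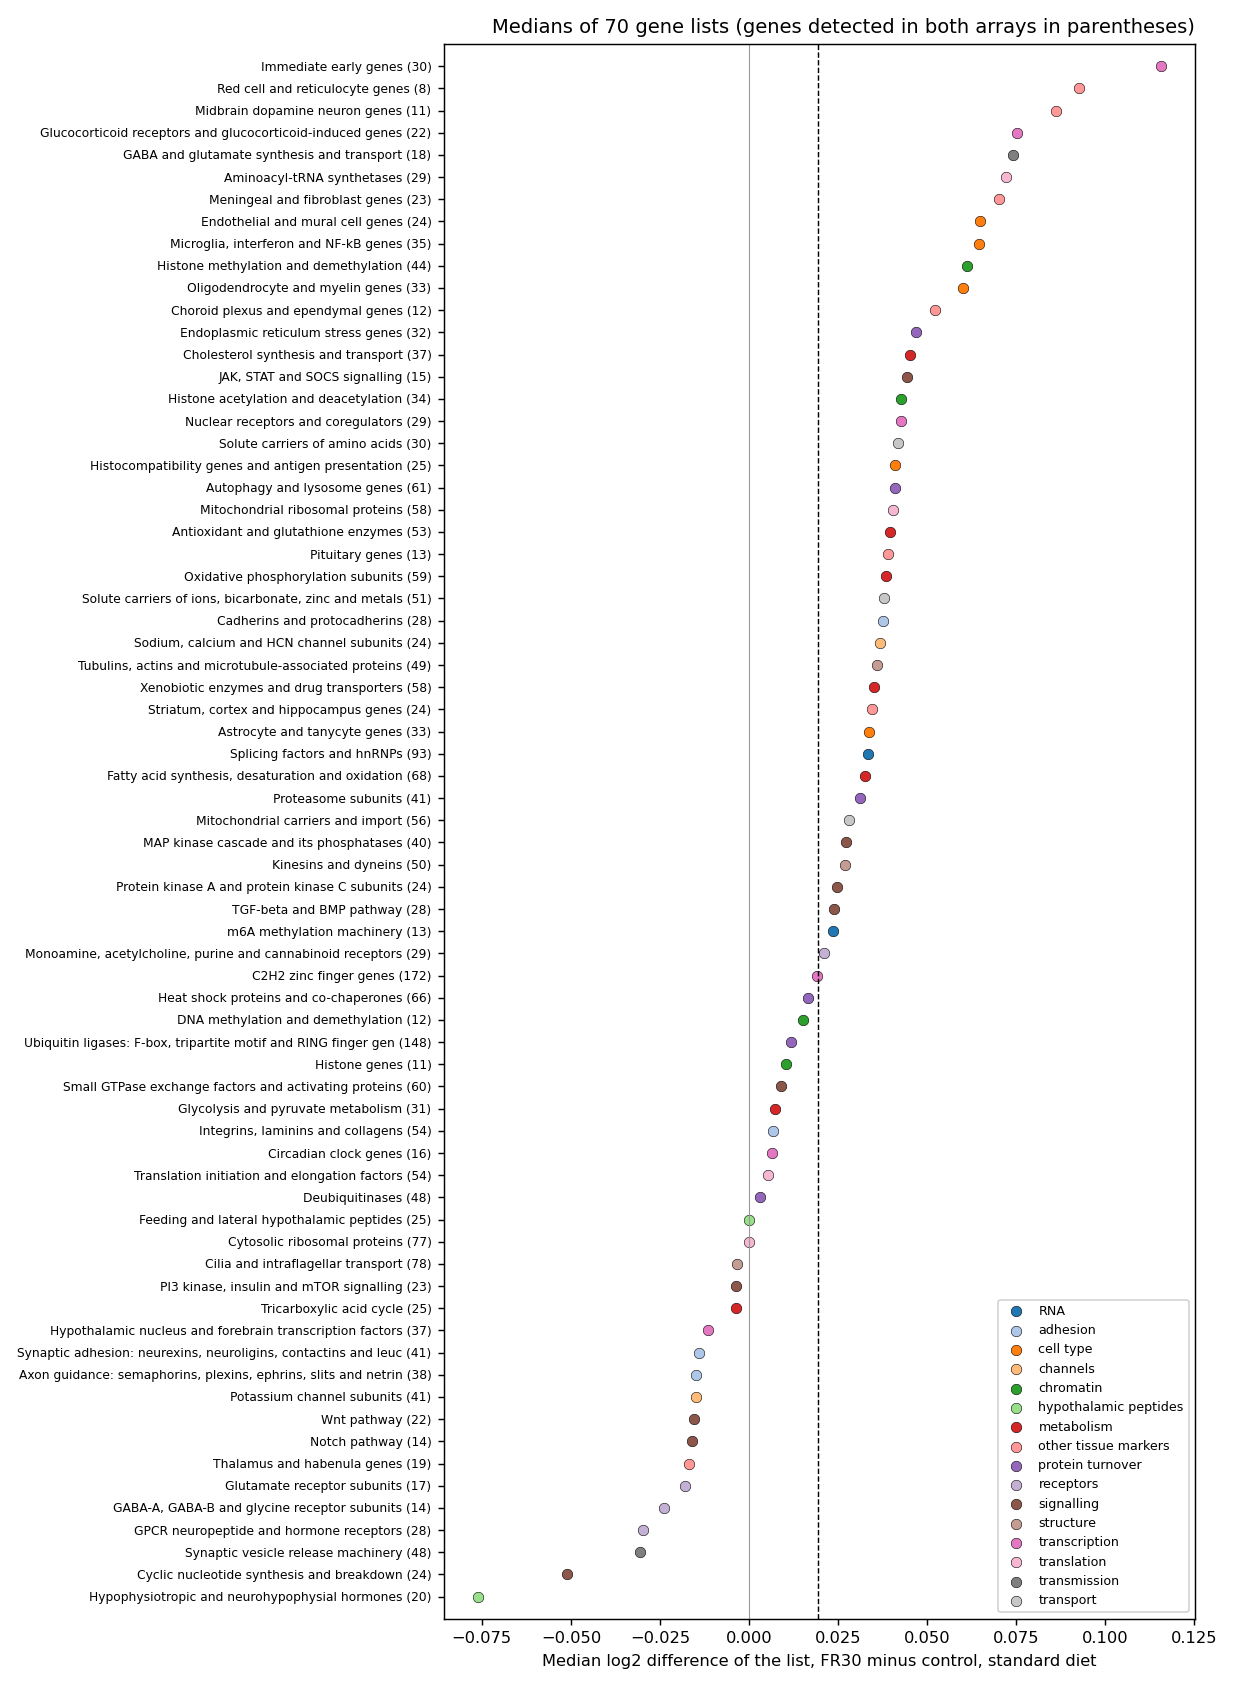
Median log2 difference (FR30 minus control, standard diet, horizontal axis) of the detected members of each of 70 gene lists, with the number of members in parentheses and the class of the list by colour. The solid line marks 0 and the dashed line the median of all genes (0.02); medians run between -0.08 for the hypophysiotropic hormones and 0.12 for the immediate early genes.

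Transcription factors of the hypothalamus and forebrain had 16 members higher and 21 lower, with a median of -0.01 that was -0.03 with median scaling. Besides Zic2, the tanycyte factor Rax (0.48) was higher, and Pou3f2 (-0.50), a factor of neuroendocrine neurons, and Meis2 (-0.50) were lowest. Sox6, which acts in cortical interneurons, had 211 ± 6.94 in FR30 and 253 ± 8.28 in control offspring (-0.63). Of 29 nuclear receptors and coregulators 19 were higher and 10 lower, with a median of 0.04 that was 0.02 without background correction, but its furthest members were lower: Rora (-0.52) and Rorb (-0.44), both orphan receptors of the ROR family, and Thrb (-0.44), a thyroid hormone receptor. Nr1h3 (0.35), a sterol sensor, and Ppargc1b (0.31) led the higher members. Clock genes were even at 8 and 8, with a median of 0.01 that was -0.00 in the authors' signals and -0.01 with median scaling, from Rora to Dbp (0.34) and Per1. Of 172 C2H2 zinc finger genes 94 were higher and 78 lower, from Klf7 (-0.58) and Zfp317 (-0.45) to Zfp455 (0.43) and Klf2.

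Among chromatin genes the 2 histone modification lists had more members higher than the 56.2% of all genes, and the DNA methylation list did not. Kdm8, a dioxygenase of the histone demethylase family, had 276 ± 4.54 in FR30 and 214 ± 7.08 in control offspring (0.83), and of 44 histone methylation genes 32 were higher, for a median of 0.06 that was 0.04 with the authors' signals and without background correction, from Kdm2a (-0.34) and Kdm6b (-0.28) to Setd5 (0.36). Ing4, which reads methylated histone H3 for an acetylase complex, had 1038 ± 35.9 in FR30 and 703 ± 23.1 in control offspring (0.69). Of 34 histone acetylation genes 24 were higher (median 0.04), and Hdac4, a deacetylase of neurons, was lowest at 337 ± 8.96 in FR30 and 440 ± 5.67 in control offspring (-0.58), just short of 1.5-fold. Tet2, which starts DNA demethylation, was dim at 195 ± 4.09 in FR30 and 225 ± 9.44 in control offspring (-0.59), and the DNA methyltransferase gene Dnmt3a had 505 ± 17.1 in FR30 and 648 ± 25.4 in control offspring (-0.47). The 12 genes of DNA methylation were otherwise even, 6 higher and 6 lower, with Tdg (0.31) and Mbd6 (0.15) highest. Of 11 histone genes 7 were higher, from H1f10 (-0.08) to H1f0 (0.12); H2az2l3, a copy of a variant histone gene outside that list, had 234 ± 9.25 in FR30 and 197 ± 2.41 in control offspring (0.64).

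RNA handling and translation included both large single values and narrow lists. Zcchc9, a zinc knuckle gene, had 1937 ± 98.1 in FR30 and 1105 ± 17.1 in control offspring (0.90). Cd2bp2, a protein of the U5 spliceosomal particle, had 2884 ± 17.5 in FR30 and 1802 ± 47.9 in control offspring (0.72), and Riok1, a kinase of ribosome maturation, had 466 ± 6.07 in FR30 and 327 ± 5.13 in control offspring (0.77). Ythdf2, which leads m6A-marked messages to decay, had 883 ± 5.26 in FR30 and 1418 ± 48.7 in control offspring (-0.80). The rest of the 13 m6A genes lay between Ythdf3 (-0.17) and the demethylase gene Fto (0.22), with a list median of 0.02 that was -0.00 with median scaling. Aff4, a scaffold of transcription elongation, had 302 ± 3.69 in FR30 and 391 ± 19.2 in control offspring (-0.60). Of 93 splicing genes 59 were higher and 33 lower, with a median of 0.03, from Rbm3 (-0.38), an RNA-binding protein known for its induction by cold, and Celf6 (-0.30) to Prpf19 (0.33) and Sf3b1 (0.36). Of 29 aminoacyl-tRNA synthetases 21 were higher, with medians of 0.07 here and 0.07 on HF diet, from Eprs1 (-0.31) and Iars2 (-0.13) to Farsb (0.17) and Iars1 (0.19). Translation factors were even (27 and 26; median 0.01, -0.00 with median scaling), from Paip1 (-0.39) and Eif2s1 (-0.25) to Eif2b3 (0.22).

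Cytosolic ribosomal protein genes were even, with 38 of 77 higher and 37 lower and a median of 0 that was -0.04 with median scaling, apart from Rps9. Rps9, a protein of the small ribosomal subunit, had 1098 ± 136 in FR30 and 3653 ± 159 in control offspring, a difference of -1.84. A second, dimmer Rps9 probe had 212 in FR30 and 1665 in control offspring (-4.28). The unnamed RGD1564649 had the same order of the 4 arrays as both Rps9 probes: FR30 on HF diet brightest, then control on standard diet, control on HF diet and FR30 on standard diet. Ribosomal protein genes have many near-identical copies in the genome and probe sequences were not used here, so what these 3 probes bound is uncertain. Rps16 (-0.44) was the next lowest, and Rplp2 (0.16) the highest. Of 58 mitochondrial ribosomal proteins 39 were higher with a median of 0.04, from Mrpl51 (-0.36) and Mrpl18 (-0.15) to Mrpl14 (0.20) and Mrps34 (0.25).

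Genes of protein turnover differed little as lists. Zyg11b, a substrate receptor of a cullin ubiquitin ligase, had 586 ± 26.9 in FR30 and 370 ± 13.9 in control offspring (0.93). Of 148 F-box, tripartite motif and RING finger genes 84 were higher and 62 lower. Rnf113a2 had 314 ± 12.8 in FR30 and 449 ± 13.3 in control offspring (-0.79), Trim2, a ubiquitin ligase of neurons, had 573 ± 6.12 in FR30 and 802 ± 16.8 in control offspring (-0.60), and Rnf40 (0.36) and Fbxo10 (0.38) were highest. Both Rnf113a2 and Trim2 were dimmer in FR30 offspring by more than 2 deposited SD on each side. The 41 proteasome subunits had 25 higher and a median of 0.03, from Psmd8 (-0.25) and Psmc6 (-0.12) to Psmd4 (0.29) and Psmd5 (0.44), and 48 deubiquitinases had 24 higher, from Usp33 (-0.48) and Usp45 (-0.39) to Usp38 (0.20) and Usp3 (0.24). Heat shock genes (40 of 66 higher; median 0.02, -0.01 with median scaling) ran between Dnajc7 (-0.32) and Hspa12b (0.21), endoplasmic reticulum stress genes (20 of 32 higher; median 0.05, 0.03 with median scaling) between Eif2s1 and Sdf2l1 (0.25), and autophagy and lysosome genes (36 of 61 higher; median 0.04, 0.01 with median scaling) between Ctss (-0.21) and Atg2b (0.44).

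In metabolism, single enzymes of sterol and sugar phosphate handling stood out. Sc5d, the desaturase that makes 7-dehydrocholesterol near the end of cholesterol synthesis, had 1938 ± 33.9 in FR30 and 3392 ± 83.7 in control offspring (-0.80). Hsd17b7, a reductase of the same pathway, was at -0.53. The rest of the pathway did not share this direction: 24 of 37 detected cholesterol genes were higher and 13 lower, with a median of 0.05, and Npc1 (0.26), Tm7sf2 (0.23) and Cyp51 (0.22) were among the higher ones. Gnpda2, which turns glucosamine 6-phosphate into fructose 6-phosphate and lies near a human body mass locus, had 533 ± 8.34 in FR30 and 816 ± 31.6 in control offspring (-0.77). Pxmp4, a peroxisomal membrane protein, had 411 ± 5.68 in FR30 and 578 ± 15.3 in control offspring (-0.69), and Tlcd3b, of ceramide synthesis, 247 ± 2.82 in FR30 and 323 ± 12.1 in control offspring (-0.75). Of 68 fatty acid genes 39 were higher and 29 lower, with Cd36 (0.51), a fatty acid transporter, and Slc25a20 (0.41), the carnitine carrier of mitochondria, highest and Mgll (-0.46), which degrades the endocannabinoid 2-AG, and Acot1 (-0.32) lowest.

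Energy metabolism showed no gene at 1.5-fold. Of 59 oxidative phosphorylation subunits 40 were higher and 18 lower, with a median of 0.04 that became -0.00 with median scaling, from Atp5mk (-0.41) and Ndufs6 (-0.14) to Ndufb7 (0.21) and Ndufv3 (0.22). Glycolysis genes (16 higher, 15 lower; median 0.01, -0.02 with median scaling) ran between Eno1 (-0.19) and Gpd1 (0.37), and tricarboxylic acid cycle genes (12 and 13; median -0.00, 0.01 with median scaling) between Dld (-0.20) and Idh3g (0.12). Mitochondrial carriers had 33 of 56 higher. Among antioxidant genes 33 of 53 were higher with a median of 0.04, or 0.02 with median scaling. Slc3a1, a subunit of the kidney cystine transporter that both this list and the amino acid carriers hold, had 1445 ± 32.6 in FR30 and 848 ± 19.4 in control offspring (0.89). On HF diet, however, its signals were 1679 ± 61.9 in FR30 and 1738 ± 88.1 in control offspring, so the control array on standard diet stood alone.

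Further transporters gave 3 more genes at 1.5-fold. Slc4a4, the sodium bicarbonate cotransporter of astrocytes, had 495 ± 17.1 in FR30 and 761 ± 20.7 in control offspring (-0.79). Slc26a8, an anion transporter known from sperm, was dim, at 265 ± 11.3 in FR30 and 215 ± 3.53 in control offspring (0.70). Of 51 carriers of ions and metals 33 were higher and 18 lower, with Slc24a3 (0.38), a sodium-calcium exchanger, next above and Slc30a2 (-0.20) next below. Of 30 amino acid carriers 19 were higher and 9 lower, and the taurine transporter Slc6a6 (-0.53) was lowest. Slc47a1, a drug and cation efflux carrier that meningeal cells also express, had 291 ± 9.19 in FR30 and 237 ± 6.25 in control offspring (0.62). Among 58 xenobiotic genes 34 were higher, and Slc22a2 (0.39), Akr1c19 (0.37) and Ephx2 (0.30) followed it, with Slc22a21 (-0.21) and Slc22a23 (-0.21) at the other end.

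Cytoskeleton and adhesion genes held several of the lower genes, which were 55 of all 79 genes past 1.5-fold. Sorbs2, an adaptor at actin and cell junctions, had 994 ± 60.0 in FR30 and 1790 ± 130 in control offspring (-0.92). The list of tubulins, actins and microtubule proteins around it had 30 of 49 members higher and a median of 0.04, which was -0.00 with median scaling, from Map2 (-0.18) to Tuba8 (0.24) and Sorbs3 (0.26). Microtubule genes outside that list, Eml5 (-0.67) and the severing enzyme Fign (-0.63), were lower but dim. Eml5 had 244 in FR30 and 308 in control offspring, and Fign 236 in FR30 and 291 in control offspring. With the authors' normalized signals their differences were -0.34 and -0.30. Dynlt3, a dynein light chain, had 3666 ± 82.5 in FR30 and 2355 ± 213 in control offspring (0.59), while Dctn4 (-0.52), of dynactin, was lowest of 50 kinesins and dyneins, of which 31 were higher. Cilia genes were even at 39 and 39. Ttc30a1, a part of intraflagellar transport that an ambiguous older symbol names, had 249 ± 1.29 in FR30 and 344 ± 26.8 in control offspring (-0.87), Rpgr, of the connecting cilium, 201 ± 12.3 in FR30 and 237 ± 1.14 in control offspring (-0.59), and Cep89 (0.37) and Nphp4 (0.44) were highest.

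Of 41 synaptic adhesion genes 17 were higher and 23 lower, with a median of -0.01 here and -0.07 on HF diet. Negr1, a neuronal adhesion protein whose gene is also near a human body mass locus, had 2071 ± 47.4 in FR30 and 3255 ± 83.8 in control offspring (-0.63), a difference at high signal. Adgrl3 (-0.42) was next lowest, and Nrxn2 (0.30) and Adgrb1 (0.48) highest. Il1rapl1, a synaptic organiser outside the list, had 198 ± 9.66 in FR30 and 238 ± 8.85 in control offspring (-0.69), close to background. Of 28 cadherins 17 were higher, from Pcdh17 (-0.39) and Pcdhb9 (-0.24) to Pcdhb5 (0.26) and Cdh1 (0.26), and of 38 axon guidance genes 18, from Unc5b (-0.39) and Ntn4 (-0.33) to Robo2 (0.21) and Rgma (0.25). Itga1, a collagen-binding integrin, had 232 ± 7.01 in FR30 and 283 ± 6.61 in control offspring (-0.60), followed by the basement membrane gene Nid1 (-0.57), in a matrix list with 28 of 54 members higher and a median of 0.01 that was -0.01 with median scaling; Lama4 (0.24) and Col15a1 (0.29) were at its upper end. Sspn, of the dystrophin complex, was at -0.66.

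Glial, vascular and immune lists had between 57.6% and 66.7% of members higher in FR30 offspring, against 56.2% of all genes. Plekhh1, which oligodendrocytes express, had 853 ± 26.7 in FR30 and 525 ± 32.9 in control offspring (0.87). Together with Sgk1 it was 1 of 2 members at 1.5-fold among 33 oligodendrocyte genes, of which 19 were higher and 14 lower (median 0.06, or 0.03 with the authors' signals and 0.02 with median scaling), while the myelin genes Opalin (0.19) and Mog (0.18) came next and Ugt8 (-0.19) and Gsn (-0.16) were lowest. The summed signal of the oligodendrocyte list was 155585 in FR30 and 151788 in control offspring, with 33 of 37 genes detected in FR30 and 34 in control offspring. Astrocyte and tanycyte genes had 20 of 33 higher, a median of 0.03, or 0.00 with median scaling, and sums of 198385 in FR30 and 193913 in control offspring. After Slc4a4, the tanycyte-expressed Col23a1 (-0.38) was lowest, and Rax and Slc1a3 were highest. Of 35 microglia, interferon and NF-kB genes 23 were higher (median 0.06, or 0.03 with the authors' signals), including Mx2 (0.34), but their summed signal was lower, at 35672 in FR30 and 37460 in control offspring, and P2ry12 (-0.35), a marker of resting microglia, and Ifi27 (-0.32) were lowest. Of 24 endothelial and mural genes 16 were higher (median 0.06), led by Klf2 and Ocln (0.52), a tight junction gene, with Sox18 (-0.29) and Itm2a (-0.23) lowest. Histocompatibility genes ran between RT1-A2 (-0.40) and RT1-CE7 (0.51), with RT1-Db1 (-0.20) and RT1-M10-1 (0.28) next.

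Markers of tissues beside the hypothalamus differed between the arrays and are given here beside the genes they include. Choroid plexus and ependymal genes had 8 of 12 members higher, led by Steap1 (0.31) and Wfdc2 (0.26), in contrast to Ttr, followed by Dynlrb2 (-0.18); their summed signal was 12246 in FR30 and 13091 in control offspring, with 12 of 25 genes detected in FR30 and 15 in control offspring. Pituitary genes had 7 of 13 higher, from Prl and the luteinising hormone subunit Lhb (-0.46) to the thyrotropin subunit Tshb (0.33) and Rax, with sums of 46466 in FR30 and 48735 in control offspring. That list also holds genes of the hypothalamus itself, the tanycyte factor Rax and the bright Oxt, which was lower in FR30 offspring. Its sums are therefore not a measure of pituitary tissue alone. Among midbrain dopamine genes 7 of 11 were higher with a median of 0.09, or 0.04 with the authors' signals. Slc6a3, the dopamine transporter, had 593 ± 13.7 in FR30 and 370 ± 12.2 in control offspring (0.97), Sncg was at 0.51 and Th, which makes dopamine precursor in hypothalamus and midbrain alike, had 940 ± 22.1 in FR30 and 831 ± 84.8 in control offspring (0.23), whereas Dlk1 (-0.25) and Gch1 (-0.21) were lowest. The sums of that list were 18250 in FR30 and 17454 in control offspring. Meningeal genes had 14 of 23 higher and sums of 53393 in FR30 and 48315 in control offspring, led by Slc47a1 and Slc6a13, with Lum (-0.24) and Dcn (-0.21) lowest. Red cell genes had 7 of 8 higher and sums of 40531 in FR30 and 37757 in control offspring, with Hbb at 5340 ± 127 in FR30 and 4559 ± 94.8 in control offspring (0.20). Thalamus genes had 8 of 19 higher, from Rora and Ramp3 (-0.38) to Slc17a6 (0.16) and Rgs16 (0.22), and forebrain genes 15 of 24, from Rorb to Adora2a (0.16) and Wfs1 (0.24). The part of these tissues in the differences above was not tested.

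Hypothalamic hormone genes had the lowest median of all lists. Of 20 hypophysiotropic and neurohypophysial genes 15 were lower and 5 higher in FR30 offspring, with a median of -0.08 here and 0.00 on HF diet, and none reached 1.5-fold. Sst, which restrains growth hormone release, had 2300 ± 60.1 in FR30 and 2930 ± 127 in control offspring (-0.32), and Oxt, the oxytocin gene, had 8656 ± 101 in FR30 and 10024 ± 127 in control offspring (-0.25). Trh, which drives thyrotropin release, had 4047 ± 104 in FR30 and 4818 ± 203 in control offspring (-0.22). Scgn (-0.48), a calcium sensor of CRH neurons, was the lowest member and Crhbp (0.10) and Scg3 (0.08) the highest. Feeding and lateral hypothalamic peptides were even, with 12 of 25 higher, 11 lower and a median of 0, from Vip (-0.31) and Penk (-0.16) to Bdnf (0.30) and Nmu (0.36). Pomc, from which the satiety signal alpha-MSH is cut, had 2318 ± 113 in FR30 and 2029 ± 18.8 in control offspring (0.21), and Npy had 1584 ± 46.2 in FR30 and 1572 ± 93.8 in control offspring (0.01).

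Several genes at 1.5-fold belonged to no list. Hycc2, of the complex that makes phosphatidylinositol 4-phosphate at the membrane, had 404 ± 11.6 in FR30 and 650 ± 36.2 in control offspring (-0.93). Aurkb, a mitotic kinase, had 1000 ± 32.3 in FR30 and 1600 ± 40.0 in control offspring (-0.73), a bright signal for a mitotic gene in adult brain. A further probe, deposited as Aim1_predicted and matched to Aurkb only through an older symbol, was not detected. Whether that probe measures Aurkb was not checked. Apeg3, a non-coding antisense transcript of the imprinted Peg3 locus, had 4194 ± 192 in FR30 and 6970 ± 92.4 in control offspring (-0.72), the brightest of the lower genes. Lxn, a carboxypeptidase inhibitor, had 555 ± 14.1 in FR30 and 395 ± 16.8 in control offspring (0.68), and the unnamed LOC499823 had 8167 ± 111 in FR30 and 4806 ± 257 in control offspring (0.79), the brightest of the higher genes. The unnamed LOC500663 had 340 ± 12.1 in FR30 and 592 ± 9.19 in control offspring (-1.13). Tmem243 (-0.72), Gpr137c (-0.61), Depp1 (0.67) and Mybpc1 (0.62), a muscle gene, complete the named ones.

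Genes detected in only 1 of the 2 arrays have a bound in place of a difference, for which the dim side was put at the higher of the probe's own value and the dimmest detected signal of its array. Only FR30 offspring detected 114 genes, 2 of them at a bound of 1.5-fold: the T-type calcium channel gene Cacna1h (215 in FR30 and 181 in control offspring, at least 1.54-fold higher) and the alpha-globin gene Hba-a3 (213 in FR30 and 165 in control offspring, at least 1.51-fold higher). Atp10a and Kcnj8, each with a log2 bound of 0.58, and Clca1 (0.54) followed. Only control offspring detected 292 genes, 3 of them at that bound: the unnamed RGD1566136 (161 in FR30 and 265 in control offspring, at least 2.31-fold lower in FR30), the protein kinase A inhibitor Pkib (185 in FR30 and 225 in control offspring, at least 1.60-fold lower) and Ccdc3 (187 in FR30 and 219 in control offspring, at least 1.52-fold lower). LOC497812 was at least 1.44-fold and Plekhf2 at least 1.36-fold lower, and for 110 of the 292 genes no fold could be given. The larger number of genes seen only in the control array goes with its 10776 detected probes, against 10579 in the FR30 array.

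The HF-diet arrays hold the same prenatal contrast in 2 further samples, which share no array with the standard-diet pair. Of the 24 genes higher on standard diet 17 were higher in FR30 offspring on HF diet too (70.8%), with a median of 0.41, where 51% of all 10100 genes detected on 4 arrays were higher. Of the 55 lower genes 52 were detected on all 4 arrays, and 41 of these were lower on HF diet too (78.8%), with a median of -0.30, where 48.6% of all genes were lower. Across the 10100 genes the differences on the 2 diets had a Pearson's r of 0.33 and a Spearman's rho of 0.30, with genes as points that are not independent and share the probes. At 1.5-fold on HF diet, 52 genes were higher (0.515%) and 26 lower (0.257%), so the lower side was not the larger one there.

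**Figure D4:**
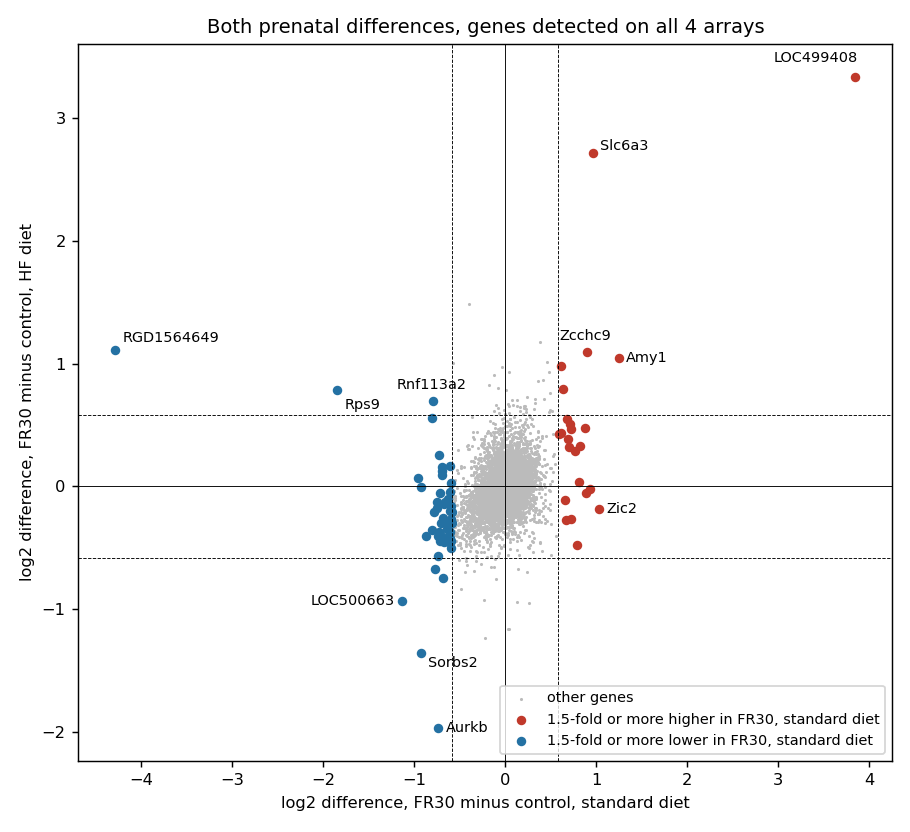
Log2 difference (FR30 minus control) on HF diet (vertical axis) against that on standard diet (horizontal axis) for each of 10100 genes detected on all 4 arrays, with dashed lines at 1.5-fold. Red and blue points are the genes past 1.5-fold on standard diet; LOC499408 and Slc6a3 lie far out in the upper right, Aurkb and Sorbs2 in the lower left, and RGD1564649 and Rps9 in the upper left.

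Past 1.5-fold in the same direction on both diets were 11 genes, 6 higher and 5 lower. LOC499408 had 922 ± 39.7 in FR30 and 211 ± 4.80 in control offspring on HF diet, a difference of 3.34 there. Slc6a3 had 1642 ± 33.7 in FR30 and 357 ± 10.1 in control offspring on HF diet (2.72), well above its standard-diet difference, and Zcchc9 had 2019 ± 12.9 in FR30 and 1011 ± 29.8 in control offspring (1.10), nearly the same 2 signals as on standard diet. Amy1 (1.04), Slc47a1 (0.98) and H2az2l3 (0.79) were the other higher genes on HF diet. The midbrain dopamine list, which holds Slc6a3, had 8 of 11 members higher on HF diet, with a median of 0.33. Its sums were 20244 in FR30 and 17107 in control offspring on HF diet. The meningeal list, which holds Slc47a1, had 19 of 23 higher there and a median of 0.38. Its sums were 54414 in FR30 and 39346 in control offspring. The part of these tissues in the values of Slc6a3 and Slc47a1 was not tested. On the lower side, Aurkb had 567 ± 30.6 in FR30 and 1855 ± 35.2 in control offspring on HF diet (-1.97), Sorbs2 772 ± 19.1 in FR30 and 1784 ± 41.3 in control offspring (-1.36), and Gnpda2 533 ± 18.2 in FR30 and 779 ± 28.7 in control offspring (-0.68). LOC500663 (-0.93) and Pxmp4 (-0.75) completed these. In all 11 genes both FR30 arrays lay on the same side of both control arrays, which the choice of these genes favours. Sgk1, at 3840 ± 237 in FR30 and 2629 ± 42.0 in control offspring on HF diet (0.51), Lxn (0.55), Cd2bp2 (0.47) and Gad2 (-0.45) fell short of 1.5-fold there in the same direction.

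Other genes had little difference or the opposite one on HF diet. Zic2 (-0.19), Zyg11b (-0.03), Slc3a1 (-0.05) and Grm2 (0.04), among the furthest higher genes on standard diet, were near 0 or slightly lower on HF diet, as Pde4d (0.06), Hycc2 (-0.01), Pacsin1 (0.16) and Gabrb2 (-0.13) were near 0 among the lower ones. Ttr had 1251 ± 49.1 in FR30 and 183 ± 4.59 in control offspring on HF diet, where the control array did not detect it, so that it was at least 22.7-fold higher in FR30 offspring, opposite to standard diet. Prl had 240 ± 15.1 in FR30 and 159 ± 7.14 in control offspring, at least 2.18-fold higher. The choroid plexus list differed the same way, with sums, Ttr included, of 14811 in FR30 and 11568 in control offspring on HF diet; the part of choroid plexus tissue in the value of Ttr was not tested. Ythdf2 (0.55), Rnf113a2 (0.70), Rps9 (0.78) and RGD1564649 (1.11) were also higher in FR30 offspring on HF diet and lower on standard diet.

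The order of the 4 arrays is given as a description, since genes chosen for a difference between 2 arrays lie at an extreme in them in part by that choice. Of the 55 lower genes, the control array on standard diet was the brightest of the 4 for 46 (83.6%), and the FR30 array on standard diet was the dimmest for 33 (60%). Of the 24 higher genes, the FR30 array on standard diet was brightest for 15 (62.5%) and the control array on standard diet dimmest for 16 (66.7%). Gabrb2 had 330 ± 8.68 in FR30 and 347 ± 6.27 in control offspring on HF diet, both near its FR30 signal on standard diet.

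Gene length differed between the 2 sides, a property that the choice of genes did not use and for which no test was run. Among genes with a symbol, the span in the GRCr8 annotation had a median of 62.5 kb for 39 of the 40 lower genes, 14.9 kb for the 20 higher genes and 23.7 kb for all 8877. Of the lower genes 15 (38.5%) spanned more than 100 kb, as did 1 of the higher genes (5%) and 14.1% of all. Pde4d (1514 kb), Il1rapl1 (1505 kb), Prkg1 (1233 kb), Negr1 (732 kb), Sox6 (612 kb), Prkce (487 kb) and Slc4a4 (452 kb) are the longest lower genes, many of them active in neurons, and Sgk1 (117 kb) is the long higher one. The decile of the longest genes held 14 lower and 0 higher genes. Its median was -0.01, against 0.02 in the shortest decile and 0.04 in the fourth, the highest of the deciles. Past 1.5-fold on HF diet the longest decile held 5 lower genes and 1 higher gene, where 26 of all genes were lower and 52 higher. On HF diet the medians of the 2 longest deciles were -0.03 and -0.03, and Spearman's rho of span and difference across genes was -0.07 on standard and -0.12 on HF diet. For the unnamed loci too few had a span for the same comparison.

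**Figure D5:**
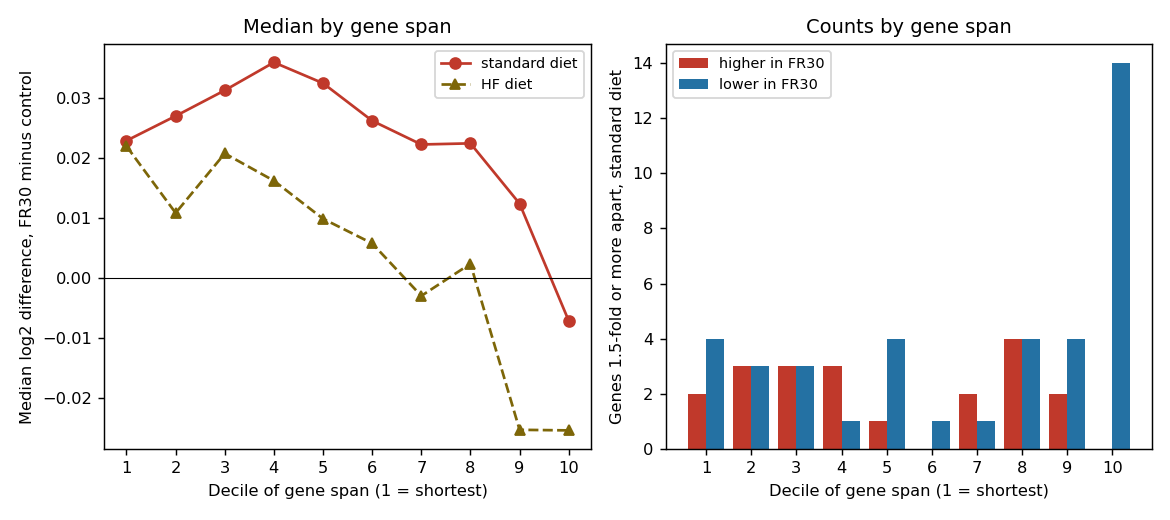
Left, median log2 difference (FR30 minus control, vertical axis) in deciles of genes by gene span, shortest to longest (horizontal axis), on standard diet (circles) and HF diet (triangles). Right, number of genes past 1.5-fold on standard diet in the same deciles, higher (red) and lower (blue); the longest decile holds 14 lower and 0 higher genes.

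Loci known only by a number were more often lower than named genes. Of 1218 detected loci 57.2% were lower in FR30 offspring, with a median of -0.03, and 15 (1.23%) were past 1.5-fold on the lower side and 4 on the higher. Among 8966 genes with a symbol 41.5% were lower, the median was 0.02, and 40 (0.446%) and 20 were past 1.5-fold on the lower and higher side. On HF diet 53.3% of the loci and 47.9% of the named genes were lower. The precision of single probes was limited: of the 79 genes past 1.5-fold 73 rested on the only probe of the gene. For Plekhh1, Prkg1 and Zyg11b further probes existed that were not detected, as was the probe matched to Aurkb through an older symbol. For 228 genes measured by 2 detected probes, both values correlated across genes with a Pearson's r of 0.59 across genes, which was 0.21 without Rps9, and a Spearman's rho of 0.16. The median gap between the 2 probes was 0.12, close to the spread of most genes. LOC362127, the other gene past 1.5-fold with a second detected probe, had -0.63 and -0.54.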

How the data were processed

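Gene expression was measured on 4 Illumina bead arrays, 1 per group, from RNA extracted with Trizol and labelled with biotin, per the labels' protocols. The deposited non-normalized table gives, for each probe, a linear intensity averaged over beads and a deposited detection p-value, exported from GenomeStudio per the submitters' processing notes. In the normalized table the authors' intensity followed a normalization whose method the sources used here do not give, with a detection p-value and an SD per the file headers. Its 4 medians were all 181, its background is kept, and a further table of values was identical to it. The median non-normalized intensity was 169 in FR30 and 190 in control offspring on standard diet, and 177 in FR30 and 173 in control offspring on HF diet. The number of arrays limits the precision, and with 1 array per group no test was run.

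The non-normalized intensities were turned into log2 values by the function neqc (limma 3.58.1, R 4.3.3), with background corrected through the detection p-values, an offset of 16 and quantile normalization over the 4 arrays. A gene took its probe with the highest mean, had to be detected at a p under 0.01 in both arrays, and was described from 1.5-fold on. The steps were also run on simulated data, with the same background in all 4 arrays and an assumed noise. That run does not measure the precision of the real comparison. Symbols were matched to RefSeq (GRCr8): of 22523 probes 10291 held a current symbol, 4966 an older one, 45 an older one of several genes, 1642 a gene number, 5450 an unmatched symbol, kept as deposited, 117 none and 12 a date in its place. Named are the 20 genes furthest in each direction, up to 5 members of each list past 1.5-fold and the 2 furthest members per direction of each described list, up to 5 genes per direction detected in 1 array, and genes past 1.5-fold the same way on HF diet. A few hypothalamic, glucocorticoid and synaptic genes and promoters beyond this rule were chosen after their values were seen. Results on a few genes withheld for evaluation are not reported here. The groups of genes and the lists were chosen with earlier results of these data known. Summed signals of a list are background-corrected values. Alternatives were the authors' normalized signals, no background correction, median scaling, neqc on the 2 arrays, an offset of 50, a detection p under 0.05, detection on all 4 arrays, the mean of the probes, probes as the unit and a threshold of 2-fold. Python 3.11.15 and matplotlib 3.10.9 made the figures.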

Additional observations from a re-analysis of the deposited data

Results flagged for a closer look

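In 3 genes the prenatal difference was past 1.5-fold in opposite directions on the 2 diets; with 1 array per group the difference between diets was not tested. For RGD1564649 the log2 values were -4.28 (standard diet) and 1.11 (HF diet), where its signals were 3148 in FR30 and 1509 in control offspring. For Rps9 they were -1.84 (standard diet) and 0.78 (HF diet), with 4114 in FR30 and 2329 in control offspring there. For Rnf113a2, a RING finger gene, they were -0.79 (standard diet) and 0.70 (HF diet), with 567 in FR30 and 402 in control offspring there. In these genes the FR30 array on standard diet was the dimmest of the 4 and the FR30 array on HF diet the brightest.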

How the results depend on the processing

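All 79 genes past 1.5-fold kept their direction with the authors' normalized signals, without background correction, with median scaling, with neqc on the 2 arrays and with an offset of 50. The counts depended on how much background was left in the values. Counted anew over all genes, there were in place of 24 higher genes 12 with the authors' normalized signals, 12 without background correction and 3 at 2-fold. Instead of 55 lower genes, the authors' signals gave 16 and no background correction gave 15. An offset of 50 gave 30 and a threshold of 2-fold gave 5. Of the 79 genes themselves, 27 stayed past 1.5-fold with the authors' signals and 52 fell short of it. The other alternatives gave between 17 and 29 higher and between 52 and 60 lower genes. Medians of all genes were between 0.01 and 0.02 in the 5 value alternatives. No paired analysis was possible because each group is 1 array and the labels carry no replicate numbers, and for the same reason no replicate could be left out. Medians of the 70 lists shifted by at most 0.05 in these alternatives, and that largest shift is more than most of the list medians measure. For dim genes such as Tet2, Rxfp3, Il1rapl1, Eea1, Depp1, Eml5, Fign, Sspn, Sytl5 and Prkg1, signal over background limits what can be said.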
